A study of Oreochromis niloticus with 3 samples.

Results

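The genes of protein folding, translocation and export at the endoplasmic reticulum (ER) were described in the hepatopancreas of Nile tilapia (Oreochromis niloticus) at 3 salinities. They were chosen by symbol, as the genes whose symbol begins with pdia, erp, calr, canx, derl, edem, sel1l, sec61, sec62, sec63 or spcs. Symbols that begin with ssr or srp were taken where a digit follows, and hsp90b1, hyou1 and sdf2l1 were included. The rule found 37 genes of the 29605 in the table of counts, 6 listed there by symbol and 31 by a locus number that was looked up in the RefSeq gene names. RNA-Seq was run on poly(A) RNA of healthy juveniles, with 1 library for each of freshwater (0 psu), 8 psu and 16 psu. Each library was a pool of 8 fish, and the fish of each salinity were reared in 3 tanks. Salinity was raised stepwise in the saline tanks and then held for some weeks. The labels and the study's methods differ in the starting weight, the stocking and the length of the rearing. Because each salinity had 1 pool, no difference here has a replicate check, and spread between fish, tanks or library preparations was not measured.

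Proteins that are secreted or inserted in membranes are recognised by the signal recognition particle while they are being made and are threaded through the Sec61 channel into the ER. Signal peptidase removes the leader, lectin chaperones and heat shock proteins hold the chain while it folds, and protein disulfide isomerases form and rearrange its disulfide bonds. Chains that fail to fold are pulled back to the cytosol and degraded. Hepatocytes, which make plasma proteins, and pancreatic acinar cells, which make digestive enzymes, both carry a large ER, and the tilapia hepatopancreas holds both.

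The 3 libraries held 14627514, 13628578 and 16112951 counts at 0, 8 and 16 psu. Levels are given in CPM, the usual expression unit that divides the counts of a gene by the size of its library, here after TMM scaling, so that 1 count was worth 0.0729, 0.0716 and 0.0596 CPM. A fold is a ratio of 2 such levels, and its bracketed interval is a 95% Clopper-Pearson interval that covers counting error only. Log2 fold changes were taken after adding 0.5 CPM to both levels, and a gene was called higher or lower where that fold was above 2 or below 0.5. A gene was kept if any library counted it 10 times or more, which held for 36 of the 37 genes and for 16573 of all genes. The exception was srp54 (LOC102080406), the subunit that binds signal sequences, with 0 counts at 0 psu, 0 counts at 8 psu and 2 counts at 16 psu. Further srp54 loci may stand under locus numbers without a symbol and were not analysed here, so this value is of 1 locus and not of the subunit. A count of 0 allows up to 3 counts, or 0.219 CPM at 0 psu and 0.215 CPM at 8 psu. Of the kept genes, 31 had at least 100 counts in every library. No transcript lengths were used, so ratios between genes below are ratios of reads, given to compare libraries, and not of transcript amounts. Sums of marker loci are set side by side without a length correction.

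The cell type given in the labels, histiocytes of the hepatopancreas, did not match the markers. Summed levels of 5 macrophage loci were 39.5, 55.7 and 41.7 CPM at 0, 8 and 16 psu, while 12 hepatocyte loci summed to 73222, 84632 and 86721 CPM and 4 exocrine pancreas loci to 9613, 13031 and 12930 CPM. The libraries are therefore described as whole hepatopancreas. In such bulk samples, fewer cells of a type and less RNA per cell cannot be told apart. A locus was found for 11 of 17 hepatocyte, 4 of 15 exocrine pancreas and 4 of 5 macrophage symbols listed, so each sum is partial.

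Several chaperones and 2 disulfide isomerases were higher at 16 psu. The same 6 genes were called higher at 16 psu against both other salinities: the calreticulins calr and calr3b, the chaperones hsp90b1 and hyou1, and the isomerases pdia4 and pdia6. They were 6 of 36 against 0 psu, where 5.79% of all kept genes were called higher, and 6 of 36 against 8 psu, where 3.54% were. No gene of the set was called lower at 16 psu, where 5.27% of all kept genes were lower than at 0 psu and 2.14% were lower than at 8 psu. At 8 psu against 0 psu, none of the 36 was called higher and none lower, beside 4.42% and 5.41% of all kept genes. Both comparisons of 16 psu use the same 16 psu library, so they are not separate evidence. Of the set, 34 genes had at least 100 counts in 1 library, and the 6 called ones were 17.6% of them. Over all genes with such counts, the 16 psu library was higher in 4.06% and lower in 4.72% against 0 psu, and higher in 2.53% and lower in 0.893% against 8 psu. For 8 psu against 0 psu these shares were 2.33% and 4.76%, and none of the 34 was called.

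The median log2 fold change of the 36 genes was 0.35 at 16 psu against 0 psu and 0.35 at 16 psu against 8 psu, and -0.08 at 8 psu against 0 psu. The medians of all kept genes were 0.01, 0.00 and 0.00 in the same comparisons. With total counts in place of TMM scaling the median of all kept genes was 0.14 at 16 psu and 0.12 at 8 psu, both against 0 psu, and that of the 36 genes at 8 psu against 0 psu turned to 0.04. The summed level of the set was 2157, 2181 and 3327 CPM at 0, 8 and 16 psu, which was 1.54-fold (1.52 to 1.56) higher at 16 psu than at 0 psu. The 6 called genes made up 17.0%, 16.4% and 31.0% of that sum, and 56.9% of the gain between 0 and 16 psu. They were picked by their higher level in the same 16 psu library, so a larger share there follows from the choice. The disulfide isomerase pdia3 alone made up a further 19.1% of the gain.

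**Figure D1:**
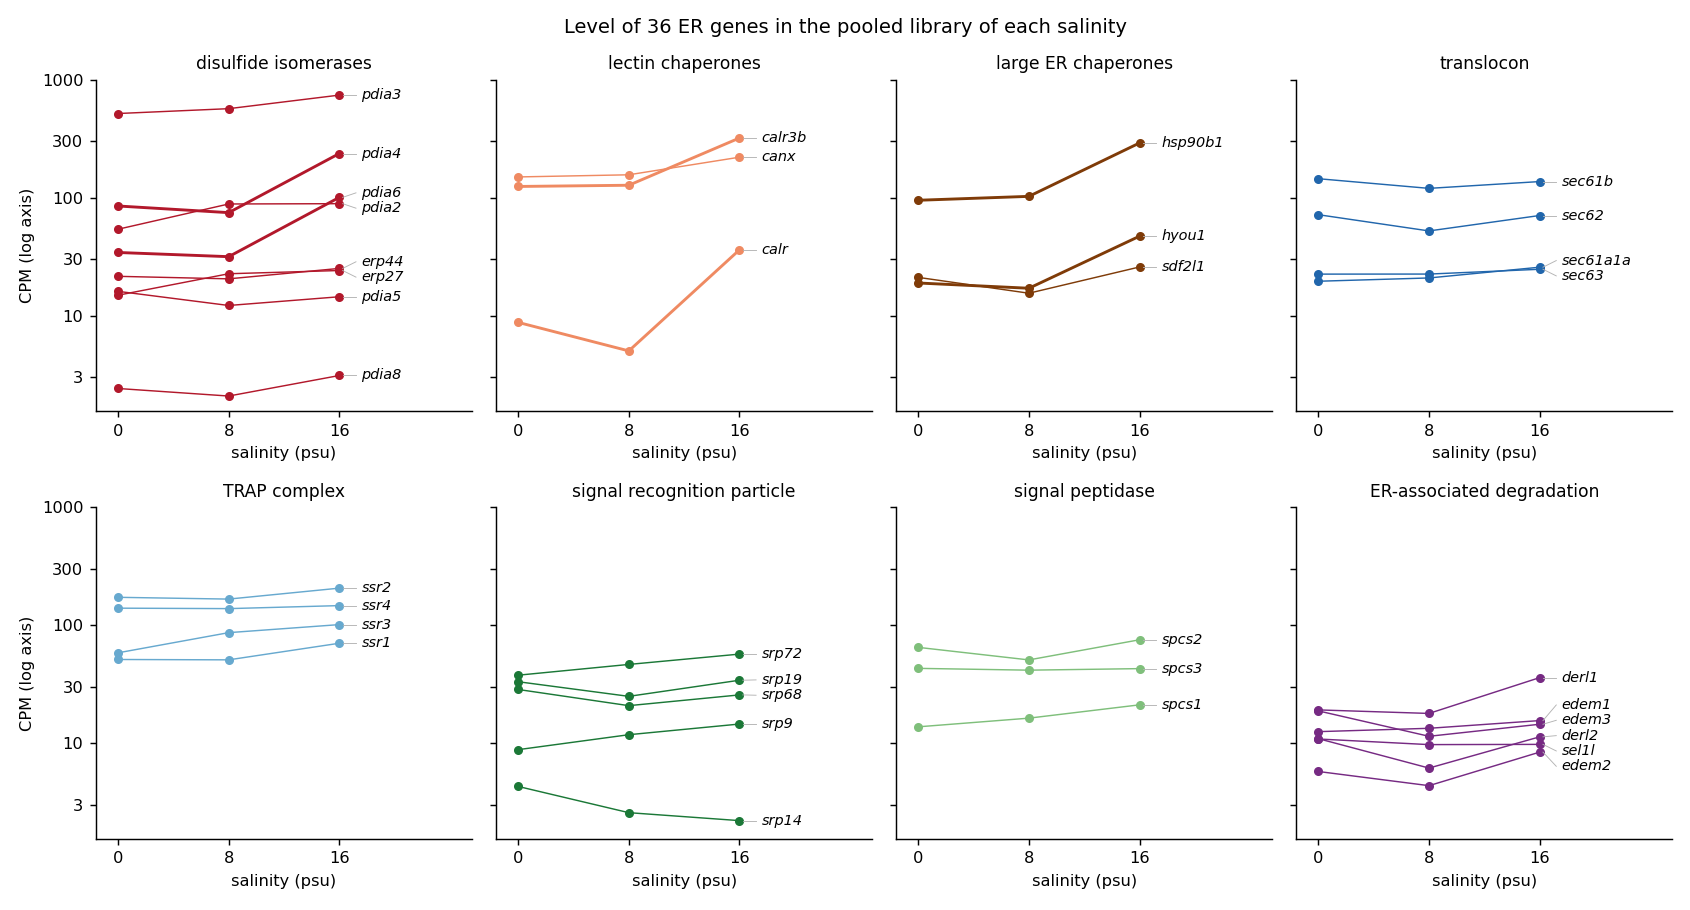
Level of each kept gene at 0, 8 and 16 psu, in CPM on a log axis, with 1 panel per role and 1 point per library. Thick lines mark the 6 genes called higher at 16 psu, which sit in the panels of lectin chaperones, large ER chaperones and disulfide isomerases, while no line in the other panels is thick.

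The lectin chaperones bind glycoproteins that still carry a glucose and hold them in the ER until they fold. Calr (LOC100701980), a soluble calcium-binding lectin, had 120, 70 and 605 counts, or 8.75, 5.01 and 36.1 CPM, at 0, 8 and 16 psu. It was lowest at 8 psu, 0.573-fold (0.420 to 0.776) of the level at 0 psu, and at 16 psu it was 4.12-fold (3.39 to 5.06) the level at 0 psu and 7.20-fold (5.61 to 9.36) that at 8 psu. No other gene of the set differed as much, and among the 8291 genes with at least 100 counts in 1 library its log2 fold change ranked 65 from the top against 0 psu and 37 against 8 psu. Its paralog calr3b (LOC100704618) had 1706, 1779 and 5373 counts, or 124, 127 and 320.4 CPM, at 0, 8 and 16 psu. Unlike calr it was alike at 8 and 0 psu, with a fold of 1.02 (0.958 to 1.09), and it was 2.58-fold (2.44 to 2.72) higher at 16 psu than at 0 psu. How reads that match both paralogs were counted is not given in the sources used here. Canx, the membrane-bound calnexin, had 149.8, 156 and 220.3 CPM at 0, 8 and 16 psu and was not called, with a fold of 1.47 (1.39 to 1.55) at 16 psu against 0 psu. Counts of calr and calr3b together were 0.889, 0.847 and 1.62 times those of canx at 0, 8 and 16 psu. Calr and calr3b were called higher in that same 16 psu library and canx was not, so this ratio largely restates the calls.

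The large chaperones differed in the same way in 2 of 3 genes. Hsp90b1 (LOC100700552), the ER form of Hsp90 also known as GRP94, had 1303, 1432 and 4878 counts, or 95, 103 and 291 CPM, at 0, 8 and 16 psu. Its level at 16 psu was 3.06-fold (2.88 to 3.26) that at 0 psu and 2.84-fold (2.67 to 3.01) that at 8 psu. Hyou1 (LOC100691644), which in mammals exchanges the nucleotide of the ER Hsp70 known as BiP, had 259, 238 and 790 counts, or 18.9, 17.0 and 47.1 CPM. It was 2.49-fold (2.17 to 2.88) higher at 16 psu than at 0 psu, and 2.76-fold (2.39 to 3.21) higher than at 8 psu. Both genes were within 1.5-fold between 8 and 0 psu. The smaller sdf2l1, which in mammals works with BiP and an ER J-protein, had 21.1, 15.5 and 25.8 CPM and was not called, with folds of 1.23 (1.05 to 1.43) against 0 psu and 1.67 (1.42 to 1.98) against 8 psu at 16 psu.

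The 8 disulfide isomerases did not move as 1 group. Pdia4 had 1165, 1042 and 3970 counts, or 84.9, 74.6 and 237 CPM, at 0, 8 and 16 psu, and was 2.79-fold (2.61 to 2.98) higher at 16 psu than at 0 psu. Pdia6 (LOC100697107) had 470, 441 and 1686 counts, or 34.3, 31.6 and 101 CPM, and was 2.93-fold (2.65 to 3.26) higher. Against 8 psu the folds of these 2 genes at 16 psu were 3.17 (2.96 to 3.40) and 3.18 (2.87 to 3.54), and both enzymes are known in mammals as partners of BiP and targets of the unfolded protein response. Pdia3, the isomerase that works with calreticulin and calnexin, had 7090, 7938 and 12420 counts, or 517, 568 and 741 CPM. It was not called, with folds of 1.43 (1.39 to 1.48) at 16 psu against 0 psu and 1.30 (1.27 to 1.34) at 16 psu against 8 psu. Counts of pdia4 were 0.164, 0.131 and 0.320 times those of pdia3 at 0, 8 and 16 psu, and counts of pdia6 were 0.0663, 0.0556 and 0.136 times those of pdia3. These ratios are taken within each library, so scaling between libraries does not alter them. Pdia4 and pdia6 were called higher in the same 16 psu library and pdia3 was not, so the higher ratios there largely restate the calls.

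A second pattern among the isomerases was a difference already present at 8 psu. Pdia2, an isomerase that in mammals is made chiefly in the pancreas, had 740, 1234 and 1490 counts, or 54.0, 88.3 and 88.9 CPM, at 0, 8 and 16 psu. It was 1.64-fold (1.49 to 1.80) higher at 8 psu than at 0 psu, and at 16 psu it was level with 8 psu at a fold of 1.01 (0.932 to 1.09). Erp27, a non-catalytic relative that in human is also found chiefly in the pancreas, had 14.9, 22.6 and 24.1 CPM and folds of 1.52 (1.27 to 1.82) at 8 psu against 0 psu and 1.06 (0.917 to 1.24) at 16 psu against 8 psu. The summed exocrine pancreas markers, given above, were likewise lowest at 0 psu and close together at 8 and 16 psu, but 66.4%, 72.8% and 70.5% of their counts at 0, 8 and 16 psu came from the trypsin gene prss1. Without prss1 the other 3 loci summed to 3230.3, 3545 and 3812 CPM. Per 1000 counts of those markers, pdia2 had 5.61 (5.21 to 6.03), 6.78 (6.41 to 7.17) and 6.87 (6.53 to 7.23) counts at 0, 8 and 16 psu, and erp27 had 1.55 (1.34 to 1.78), 1.74 (1.55 to 1.94) and 1.86 (1.69 to 2.05). Per 1000 counts of the 3 loci without prss1, an alternative chosen after seeing the data, pdia2 had 16.7 (15.5 to 18), 24.9 (23.5 to 26.4) and 23.3 (22.1 to 24.5) counts, and erp27 had 4.60 (3.99 to 5.28), 6.38 (5.70 to 7.13) and 6.32 (5.72 to 6.97). The part of acinar content in these values was not tested beyond those ratios. Of the remaining isomerases, erp44, which retains client enzymes in the early secretory pathway, had folds of 1.17 (1.00 to 1.36) at 16 psu against 0 psu and 1.23 (1.05 to 1.43) at 16 psu against 8 psu. Pdia5 had 0.900 (0.746 to 1.08) and 1.19 (0.971 to 1.45), and pdia8, at 29 to 52 counts a library, had 1.29 (0.818 to 2.06) and 1.49 (0.931 to 2.44).

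None of the 4 translocon genes was called in any comparison, and all were within 1.5-fold throughout. By comparison and direction, 2.14% to 5.79% of all kept genes were called. The lack of a call among so few genes is therefore not read as a trait, here or in the groups that follow. Sec61b, the small subunit of the channel, had 1985, 1674 and 2295 counts, or 145, 119.8 and 137 CPM, at 0, 8 and 16 psu, so that its level at 16 psu was 0.946-fold (0.890 to 1.00) that at 0 psu. Sec62, which serves the post-translational route, had 71.7, 52.2 and 70.6 CPM, with its lowest level at 8 psu. Sec61a1a, the pore-forming subunit, had 19.5, 20.8 and 25.7 CPM and sec63, which brings BiP to the channel, had 22.5, 22.5 and 24.7 CPM. Their folds at 16 psu against 0 psu were 1.32 (1.13 to 1.54) and 1.10 (0.946 to 1.28). The directions of sec61b, sec62 and sec63 at 16 psu against 0 psu turned with the scaling of the libraries. Within the libraries, counts of hsp90b1 were 0.656, 0.855 and 2.13 times those of sec61b at 0, 8 and 16 psu. Hsp90b1 was called higher in the same 16 psu library, so this ratio largely restates that call.

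The TRAP complex, 4 subunits that sit beside the Sec61 channel and help some chains to enter, also had no called gene. Ssr1 had 704, 712 and 1182 counts, or 51.3, 51.0 and 70.5 CPM, at 0, 8 and 16 psu. Ssr2 had 173, 167 and 207 CPM and ssr4 had 139.8, 139 and 147 CPM. These 3 subunits were level between 8 and 0 psu, with folds of 0.993 (0.894 to 1.10), 0.966 (0.912 to 1.02) and 0.991 (0.930 to 1.06). Ssr3, the gamma subunit, had 802, 1211 and 1701 counts, or 58.5, 86.7 and 101 CPM, and stood apart from them with folds of 1.48 (1.36 to 1.62) at 8 psu against 0 psu and 1.73 (1.59 to 1.89) at 16 psu against 0 psu. Counts of ssr3 were 0.418 (0.385 to 0.454), 0.626 (0.582 to 0.672) and 0.690 (0.648 to 0.734) times those of ssr4 at 0, 8 and 16 psu. Subunits of 1 complex thus differed in their reads at the saline levels by more than counting error.

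The 5 kept genes of the signal recognition particle were not called either. Srp72 and srp68, whose products bind each other, went apart. Srp72 had 518, 651 and 956 counts, or 37.8, 46.6 and 57.0 CPM, at 0, 8 and 16 psu, while srp68 had 392, 291 and 431 counts, or 28.6, 20.8 and 25.7 CPM. Their count ratio, srp72 over srp68, was 1.32 (1.16 to 1.51), 2.24 (1.95 to 2.58) and 2.22 (1.98 to 2.49). Srp9 and srp14 form the pair that slows translation while the chain is delivered, and they also went apart. Srp9 had 8.82, 11.8 and 14.6 CPM, with a fold of 1.65 (1.32 to 2.07) at 16 psu against 0 psu. Srp14 had 59, 36 and 37 counts, or 4.30, 2.58 and 2.21 CPM, and was the only kept gene of the set with its lowest level at 16 psu, at a fold of 0.513 (0.331 to 0.787) against 0 psu. Its fold at 16 psu against 8 psu, 0.856 (0.526 to 1.39), was within counting error, so which saline level was lowest is not resolved. Srp19, an assembly factor of the particle, had 33.2, 25.0 and 34.2 CPM, lowest at 8 psu.

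None of the 3 spcs genes of the signal peptidase was called. The peptidase subunit sec11a fell outside the rule and was counted with the SRP receptor and other translocation factors. Sec11a had 16.3, 10.2 and 10.7 CPM at 0, 8 and 16 psu and was not called. Its log2 fold changes were -0.66 at 8 psu and -0.58 at 16 psu, both against 0 psu and both beyond counting error. Spcs2, an accessory subunit, had 892, 711 and 1265 counts, or 65.0, 50.9 and 75.4 CPM, at 0, 8 and 16 psu, and was 1.48-fold (1.35 to 1.63) higher at 16 psu than at 8 psu. Spcs1 had 13.8, 16.3 and 21.2 CPM, with a fold of 1.54 (1.28 to 1.84) at 16 psu against 0 psu. Spcs3, which is needed for cleavage, had 43.2, 41.7 and 42.9 CPM, and its fold at 16 psu against 0 psu was 0.995 (0.891 to 1.11).

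Of the 6 genes of ER-associated degradation, derl1 came closest to a call. Derl1, a membrane protein of the channel that returns chains to the cytosol, had 263, 250 and 604 counts, or 19.2, 17.9 and 36.0 CPM, at 0, 8 and 16 psu. At 16 psu it was 1.88-fold (1.62 to 2.18) the level at 0 psu and 2.01-fold (1.73 to 2.34) that at 8 psu, and the log2 fold change against 8 psu, 0.99 after adding 0.5 CPM, fell just short of the limit. Its relative derl2 had 150, 86 and 190 counts, or 10.9, 6.16 and 11.3 CPM, and was lowest at 8 psu, 0.563-fold (0.427 to 0.739) of 0 psu. The mannose-trimming genes edem1, edem2 and edem3 had folds of 1.24 (1.02 to 1.51), 1.46 (1.10 to 1.95) and 0.770 (0.644 to 0.922) at 16 psu against 0 psu. Sel1l, the adapter of the ubiquitin ligase that receives misfolded chains, had 10.9, 9.74 and 9.78 CPM, with no difference beyond counting error in any comparison.

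**Figure D2:**
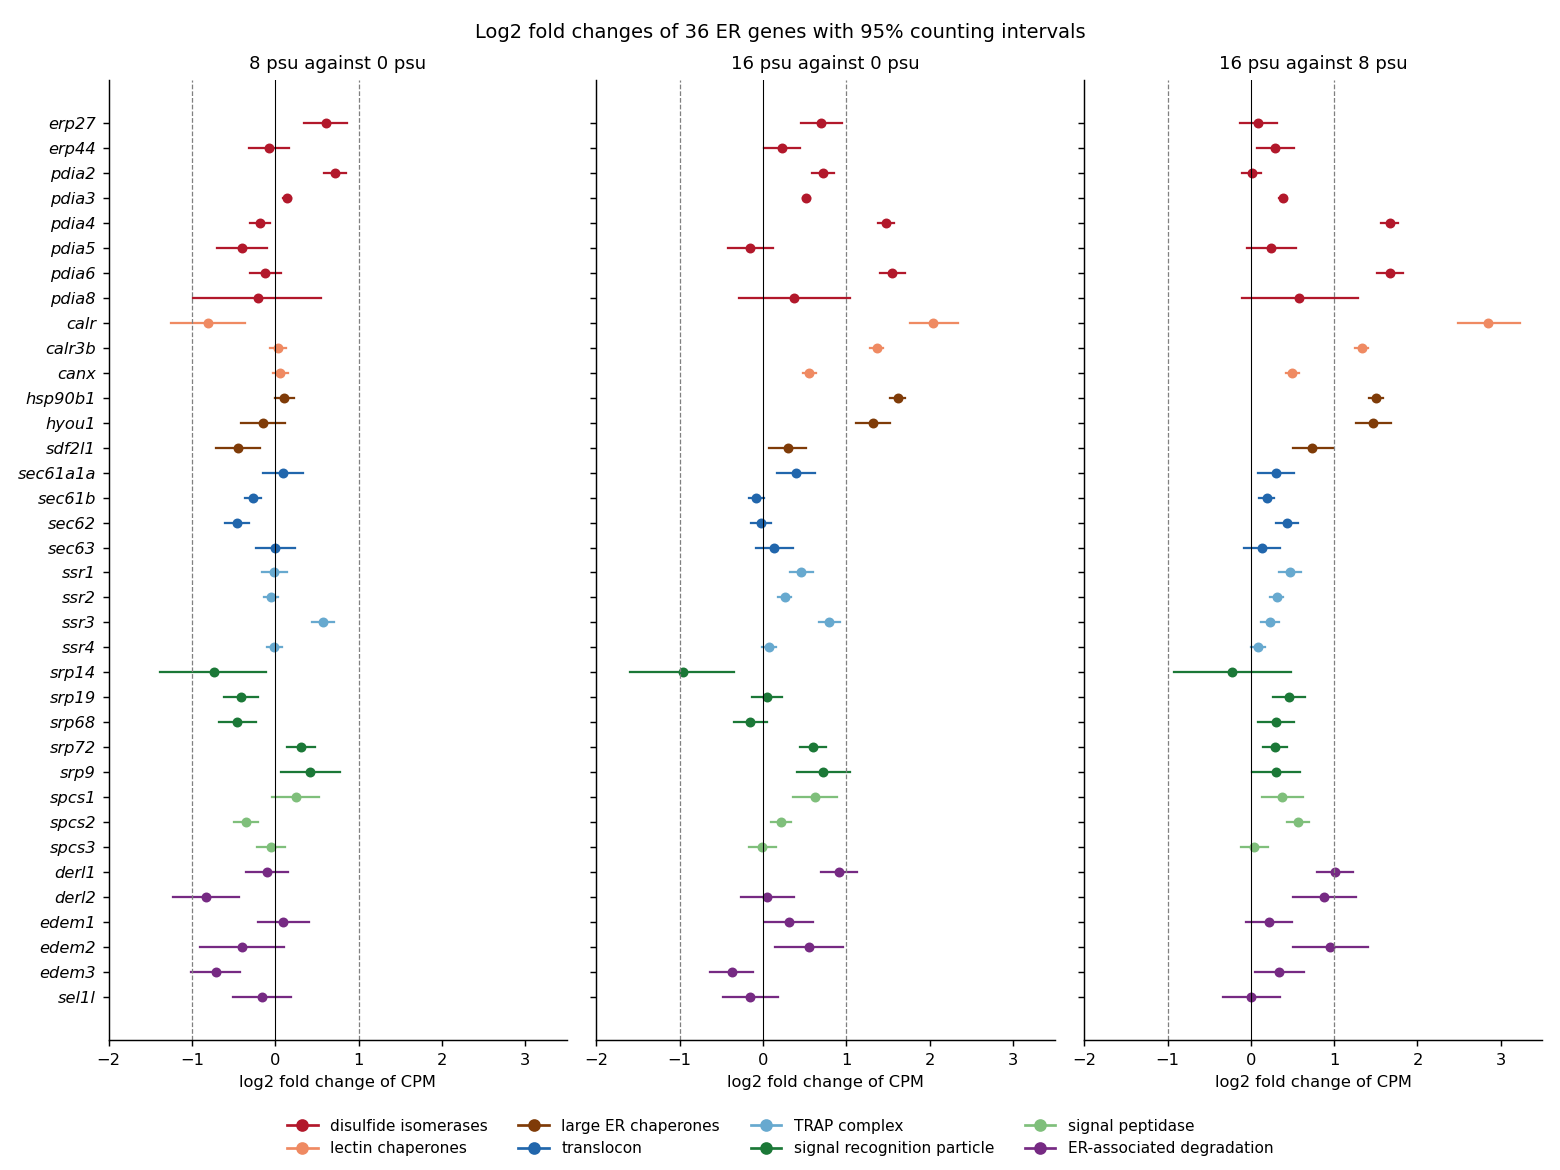
Log2 fold of each kept gene at 8 psu against 0 psu, at 16 psu against 0 psu and at 16 psu against 8 psu, 1 panel each, without an added CPM, with bars for the 95% counting interval and dashed lines at 2-fold. Calr stands farthest right in both panels of 16 psu at folds of 4.12 and 7.20, followed by the 5 other called genes, while srp14 is lowest at 16 psu against 0 psu at 0.513.

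By role, the median log2 fold change at 16 psu against 0 psu was 1.36 for the 3 lectin chaperones and 1.30 for the 3 large chaperones, against 0.60 for the 8 disulfide isomerases and 0.36 for the 4 TRAP genes. It was 0.21 for the 3 spcs genes of signal peptidase, 0.17 for ER-associated degradation, 0.06 for the translocon and 0.04 for the signal recognition particle. At 16 psu against 8 psu the chaperone medians were 1.33 and 1.44, and ER-associated degradation followed with 0.58. The other roles had medians of 0.24 to 0.37 in that comparison. Within each library, counts of the lectin and large chaperones together were 0.614 (0.594 to 0.634), 0.643 (0.622 to 0.665) and 1.20 (1.17 to 1.23) times those of the translocon and TRAP genes at 0, 8 and 16 psu. So these 2 groups of genes were in nearly the same proportion at 0 and 8 psu and in another at 16 psu. The chaperone counts include calr, calr3b, hsp90b1 and hyou1, all called higher in that same 16 psu library. Canx and sdf2l1 were not called, at folds of 1.47 and 1.23 at 16 psu against 0 psu. The ratio thus largely restates the called genes, and the remaining roles were left out of it.

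The shape over the 3 salinities was mostly a difference at the upper step. Of the 36 kept genes, 28 had their highest level at 16 psu (77.8%, against 32.3% of all kept genes), 8 at 0 psu and none at 8 psu, where 37.0% and 30.7% of all kept genes were highest. The share highest at 16 psu in the related lists described below ran from 8 of 18 to 7 of 7 kept loci. It was 8 of 12 for the hepatocyte markers, so this pattern was not particular to the set. The lowest level was at 8 psu in 22 genes, at 0 psu in 13 and at 16 psu in 1, beside 31.0%, 37.5% and 31.6% of all kept genes. The commonest order, in 15 genes, had 8 psu lowest and 16 psu highest. The order of the salinities held 13 genes, and the share of all kept genes in either order was not counted. These counts rest partly on small differences, since 18 of the 36 were within 1.5-fold in all 3 comparisons and the direction at 8 psu against 0 psu was the same under all 5 scalings tried for 22. Counting error alone was exceeded at 16 psu against 8 psu by 26 higher and 0 lower genes, beside 17.9% and 17.1% of all kept genes. At 16 psu against 0 psu it was exceeded by 23 higher and 2 lower genes, beside 22.1% and 23.6%. At 8 psu against 0 psu it was exceeded by 7 higher and 12 lower genes, beside 20.4% and 23.0%. Counting intervals narrow with depth, and these shares were not matched for it. At least 100 counts in 1 library were held by 34 of the 36 genes, but by only 8291 of the 16573 kept genes.

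**Figure D3:**
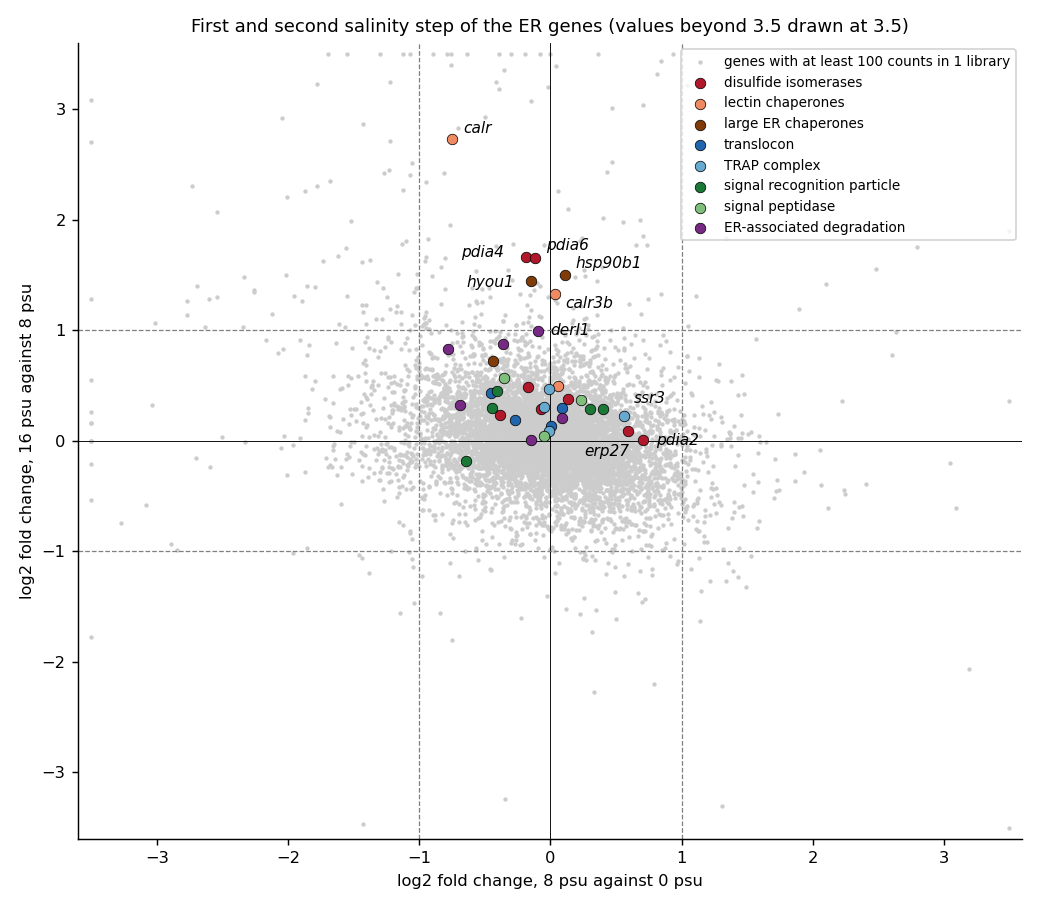
Log2 fold change of the lower step (8 psu against 0 psu, x axis) and of the upper step (16 psu against 8 psu, y axis) for the kept genes of the set in colour by role, over all genes with at least 100 counts in grey, with values beyond 3.5 drawn at 3.5. The 6 called genes lie high and near or left of 0, while pdia2 and erp27 lie right of 0 and near 0 on the y axis. Both axes use the 8 psu library.

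The differences were not limited to the 6 called genes. At 16 psu against 0 psu the other 30 had a median log2 fold change of 0.27, with a range of -0.83 to 0.89, and 22 of them were above 0. Their median at 16 psu against 8 psu was 0.30, with a range of -0.19 to 0.99, and 29 were above 0. At 8 psu against 0 psu 11 of the 30 were above 0 and the median was -0.06. Over all kept genes, 50.3%, 50% and 49.8% were above 0 in these 3 comparisons. In the related lists described below, from 12 of 18 to 7 of 7 kept loci were above 0 at 16 psu against 8 psu. With a limit of 1.5-fold, 13 of the 36 genes were higher and 1 lower at 16 psu against 0 psu, beside 15.6% and 14.7% of all kept genes. The same limit gave 10 higher and 0 lower at 16 psu against 8 psu, beside 10% and 9.09%, and at 8 psu against 0 psu 2 were higher and 4 lower, beside 14.3% and 14.5%. The shares at this limit were likewise not matched for depth.

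Other genes of the pathway were taken from 10 lists with 122 kept loci in all. Of these, 4 (3.28%) were called higher and 3 (2.46%) lower at 16 psu against 0 psu. The 16 psu library was higher in 4 (3.28%) and lower in 0 against 8 psu, and the 8 psu library was higher in 0 and lower in 4 (3.28%) against 0 psu. These counts stand beside the shares of all kept genes given above, and nothing particular to the lists is read from them. The medians of these lists ran from -0.01 to 0.44 at 16 psu against 0 psu and from 0.08 to 0.38 at 16 psu against 8 psu, below those of the lectin and large chaperones. They overlapped the medians of the other roles of the set, which ran from 0.04 to 0.60 and from 0.24 to 0.58 in these comparisons. Among the 9 kept loci of BiP partners, dnajb11, an ER J-protein that brings unfolded chains to BiP, had 173, 199 and 520 counts at 0, 8 and 16 psu and was the only one called, with log2 fold changes of 1.26 at 16 psu against 0 psu and 1.10 at 16 psu against 8 psu. No locus carried the symbol hspa5, the gene of BiP itself, so it was not analysed here. The study listed HSPA5 repeatedly among its stable-then-change genes, so BiP loci may stand under locus numbers without a symbol. It also listed DERL1 and SSR1 there, while derl1 and ssr1 were not called here. Whether those are the same loci was not checked. Among 13 loci of the sensors and factors of the unfolded protein response (UPR), which senses unfolded chains in the ER, xbp1, whose spliced mRNA codes for a factor that drives chaperone genes in mammals, had 2240, 2926 and 6564 counts and was called higher at 16 psu against 0 psu at 1.26. Xbp1 was not called in the other comparisons, at 0.90 for 16 psu against 8 psu and 0.36 for 8 psu against 0 psu. Reads of the spliced and unspliced forms of xbp1 are not separated in a count per gene. The factors ddit3 and atf4a, of the branch that responds through translational control, were not called, with log2 fold changes of 0.02 and 0.13 at 16 psu against 0 psu. Ddit3 was highest at 8 psu, with 185, 257 and 188 CPM at 0, 8 and 16 psu. Of the 13 loci of sensors and factors, 9 were above 0 and 4 below 0 at 16 psu against 0 psu, and only xbp1 was called. Those below 0 included the paralog atf4b at -0.29 and the sensor ern1 at -0.57, both beyond counting error. Among 10 kept targets of the response, manf, a secreted ER protein, had 501, 453 and 1157 counts and was called higher at 16 psu against 8 psu at 1.08, with 0.91 against 0 psu. Of the 10 targets, 7 were above 0 at 16 psu against 0 psu and 8 at 16 psu against 8 psu. The 3 exceptions against 0 psu included herpud1, with 736, 456 and 681 counts, and chac1, with 1742, 1087 and 1219 counts, both highest in CPM at 0 psu. The third, with 51, 24 and 40 counts, was also highest there.

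Among 11 loci of glycoprotein quality control, uggt1, the enzyme that puts a glucose back on unfolded glycoproteins so that the lectin chaperones bind them again, had 219, 277 and 556 counts at 0, 8 and 16 psu and was called higher at 16 psu against 0 psu with a log2 difference of 1.03. Among 12 loci of the COPII coat, which buds vesicles from the ER, sec31b had 140, 174 and 412 counts and was called at 1.23 in the same comparison. The oligosaccharyltransferase, which attaches the glycans in the ER, had 11 loci, and its tmem258, with 843, 346 and 406 counts, was called lower at 8 psu and at 16 psu, both against 0 psu, at -1.29 and -1.33. Its median was -0.01 at 16 psu against 0 psu. None of the 17 oxidases and prolyl isomerases was called at 2-fold. In that list p4hb, itself the disulfide isomerase pdia1 by another symbol, had 367, 382 and 568 CPM, qsox1, a sulfhydryl oxidase, had 613, 1181 and 1107 CPM, and ppib, an ER prolyl isomerase, had 143, 254 and 285 CPM. So p4hb differed at the upper step and qsox1 and ppib at the lower one. None of the 7 retrieval receptor loci was called. The remaining calls, in the lists of SRP receptor and other translocation factors (18 loci), ER degradation ligases (14 loci), oligosaccharyltransferase and response sensors, fell on loci with fewer than 100 counts in every library.

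**Figure D4:**
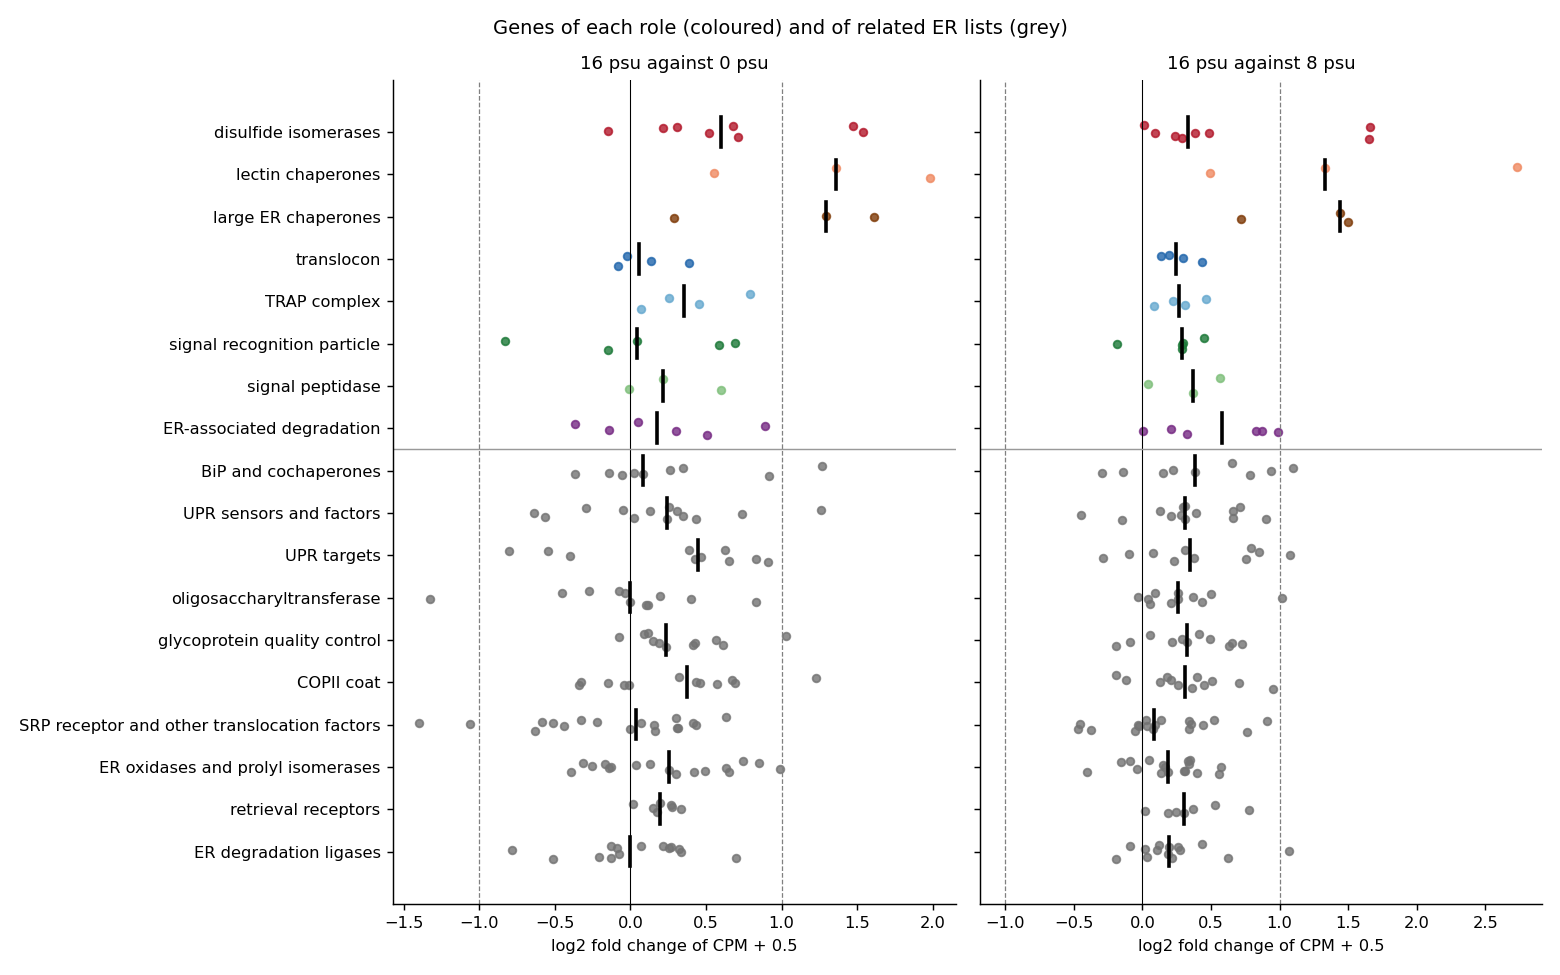
Log2 fold change of each kept gene at 16 psu against 0 psu and at 16 psu against 8 psu, 1 dot per gene, with the roles of the set in colour, the related lists in grey and a black bar at each median. The bars of the lectin chaperones (1.36 and 1.33) and of the large chaperones (1.30 and 1.44) stand apart from those of the other roles and lists.

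Markers of other tissues moved between the libraries as well. The 13 skeletal muscle loci summed to 19.1, 6.01 and 125 CPM at 0, 8 and 16 psu, and 10 of the 12 kept ones were called higher at 16 psu against 0 psu and 10 against 8 psu. This order, lowest at 8 psu and highest at 16 psu, was also that of 15 of the 36 genes of the set. Among them were 4 of the 6 called ones, calr, hyou1, pdia4 and pdia6. For hyou1 and pdia6 the lower step was within counting error, at folds of 0.902 (0.754 to 1.08) and 0.921 (0.807 to 1.05). The share of all kept genes in this order was not counted, so nothing is read from the match. The 10 enterocyte loci, 6 of them kept, summed to 1297, 216 and 189.8 CPM. Most of that sum came from apoa4b alone, with 1248, 191 and 171 CPM. At 16 psu against 0 psu 5 of the 6 kept loci were called lower. Among them fabp2 and slc15a1b had 23 counts each at 0 psu and 0 counts at 8 and 16 psu. The locus not called, cdh17, had 13.1, 11.6 and 12.5 CPM. The 2 erythrocyte loci, from 2 of 4 symbols listed, summed to 162, 182 and 152 CPM. The pancreatic islet loci summed to 11.5, 11.4 and 11.2 CPM, with both insulin genes at 0 in every library. Nearly all of that islet sum came from pdx1, with 156, 155 and 187 counts at 0, 8 and 16 psu. The part of muscle and intestine RNA in the levels of the set was not tested. Against the hepatocyte markers of the same library, hsp90b1 had 1.30 (1.23 to 1.37), 1.21 (1.15 to 1.28) and 3.35 (3.26 to 3.45) counts per 1000 at 0, 8 and 16 psu, and pdia4 had 1.16 (1.09 to 1.23), 0.881 (0.829 to 0.937) and 2.73 (2.65 to 2.82). Those ratios rest largely on 1 marker, since hpxa held 535402, 686329 and 722469 of the 1004248, 1182085 and 1454119 marker counts. Hsp90b1 and pdia4 were called higher in the same 16 psu library, so their higher ratios there largely restate those calls. Of the 12 markers only CP was called at 16 psu against 0 psu, higher at a log2 fold change of 1.82.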

How the data were processed

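Per the labels and the study's methods, pooled poly(A) RNA was prepared with the Ion Total RNA-Seq kit for single-end reads on an Ion Proton. The authors used MapSplice and the genome build Orenil1.1 for mapping, and the submitters' processing notes name HTSeq. The deposited values are raw counts per gene, whole numbers with no normalization by the authors. The strand setting and the treatment of multi-mapped reads are not given in the sources used here.

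Counts were scaled with TMM factors (edgeR 4.0.16, run under R 4.3.3) over the 3 libraries, giving effective sizes of 13.7M, 14.0M and 16.8M counts at 0, 8 and 16 psu. Genes with at least 10 counts in 1 library were kept. Folds, intervals and figures were made in Python 3.11.15 with scipy 1.17.1, pandas 2.3.3 and matplotlib 3.10.9. The fold and interval functions were tested on simulated counts that held counting error only. The scaling, the symbol lookup and the ratios were not part of that test. With 1 library per salinity no test could be fitted and no p-value is given. Calls rest on a fold limit of 2, after the fold limits of the study. The intervals cover counting error only. PCR duplicates are not marked, so the intervals may be too narrow even for that.

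Of 27855 locus numbers, 23652 were found in RefSeq's gene names and 13937 had a symbol. Those names belong to another assembly (O_niloticus_UMD_NMBU), so no coordinates are given. A gene without a symbol there could not be found by the rule, and sequences were not analysed here. The genes and lists were chosen with earlier results of these data known. Genes with at least 1000 counts in 1 library, or called with at least 100 counts in 1 library, were named with each library's value, others by folds or levels. Of the related lists, called loci of at least 100 counts in 1 library and the 3 loci with the most counts could be named. Sec11a was named besides, as a signal peptidase subunit outside the rule. The alternatives were DESeq2 1.42.0 size factors, upper quartile factors, total counts, a pseudocount of 0.1 or 2, no count minimum or a minimum of 100 counts, and a fold limit of 1.5. The hepatocyte markers as library size were added after seeing the data.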

Additional observations from a re-analysis of the deposited data

How the results depend on the processing

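The 6 genes higher at 16 psu were called under every scaling tried, with counts of 6 or 7 in both comparisons at a fold limit of 2. With a fold limit of 1.5 the count of genes called higher was 13 at 16 psu against 0 psu, 10 at 16 psu against 8 psu and 2 at 8 psu against 0 psu, and the count called lower was 1 at 16 psu and 4 at 8 psu, both against 0 psu. The hepatocyte markers as library size were chosen after seeing the data. With them 1 of the 36 genes was lower at 16 psu and 2 were lower at 8 psu, both against 0 psu. Beside these, 2062 and 1987 of the 16573 kept genes were called lower in the same comparisons. The median log2 fold change of the set at 16 psu against 0 psu was then 0.14. Under that scaling the median of all kept genes was -0.23 at 16 psu and -0.20 at 8 psu, both against 0 psu. That scaling rests largely on hpxa, the hepatocyte marker with the most counts. The share of the set above 0 at 8 psu against 0 psu was 36.1%, but 55.6% with total counts and 16.7% with the hepatocyte markers. With total counts, 1244 of all kept genes were called higher and 666 lower at 16 psu against 0 psu (960 and 874 with TMM). For 8 psu against 0 psu total counts gave 992 higher and 704 lower genes (733 and 897 with TMM). Directions were the same under all 5 scalings for 34 of 36 genes at 16 psu against 8 psu, 27 at 16 psu against 0 psu and 22 at 8 psu against 0 psu. At 16 psu against 8 psu the exceptions were pdia2 and sel1l. At 16 psu against 0 psu they were derl2, erp44, sec61b, sec62, sec63, spcs2, spcs3, srp19 and ssr4.

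No paired analysis was possible because each salinity had 1 library. Leaving out a library would remove a salinity. Promoter motifs and protein features were planned and were not run, since no sequences were used here. Depth limits the genes with few counts, such as srp14, pdia8 and edem2, whose intervals are wide.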
